A study of Mus musculus with 51 samples.

Results

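Imprinted genes were followed through Bmp4-driven differentiation of mouse embryonic stem cells (mESCs) towards cardiac mesoderm and in 4 lines lacking transcription factors of that route. The set held 37 genes of the 24538 in each expression table, taken by symbol from 17 imprinted clusters, and all 37 were present in all 9 tables. The list was selected on the FPKM values of these same tables, in which *H19* had already stood out, so the counts below describe the genes and test nothing. Of the 37, 14 are expressed from the maternal allele, 22 from the paternal allele, and *Gnas* from both or from the maternal allele depending on the tissue. The deposited values do not separate the parental alleles, so imprinting itself was not measured.

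In an imprinted cluster, a control region carries DNA methylation on the copy from one parent only, set in that parent's germ line, and the genes around it are then read mainly from one parental copy. *Zfp57* binds a short methylated motif in such regions and, with *Trim28*, keeps the methylation in place after fertilisation, and *Ctcf* binds the unmethylated control region between *H19* and *Igf2*, so that the maternal copy makes *H19* and the paternal copy makes *Igf2*. Many imprinted genes act on growth: *Igf2* is a fetal growth factor, *Igf2r* clears it, *Grb10* dampens signalling from the insulin and Igf1 receptors, *Cdkn1c* (p57) is a cyclin-dependent kinase inhibitor and *Phlda2* limits the growth of the placenta.

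The sequences below show a motif known from imprint control and the microRNAs made from *H19*. No result below was tied to the motif, and *Igf2*, *Grb10* and *Snrpn* held no copy of it in these windows. The motif that *Zfp57* binds when methylated, TGCCGC on either strand (GCGGCA when read on the printed strand), lay in the 250 bases before a start site of 7 of the 28 imprinted genes with an entry in the promoter table (25%), namely *Meg3*, *Zim1*, *Mest*, *Copg2*, *Plagl1*, *Nap1l5* and *Zdbf2*. Over all 27025 symbols of that table the share was 9.84%, any listed start site of a gene being enough, and a match is a description of the letters and not a bound site. The motif holds a CpG (C followed by G), and the windows differ in CpG number. The median of the highest CpG count per gene was 11 for the 28 imprinted genes and 6 for all symbols. The shares were not adjusted for this. The windows of the 4 matched genes that were called in a KO comparison below are printed 5′ to 3′ with the motif in capitals, from RefSeq on GRCm38.p6: *Mest* at chr6:30737800-30738049 (+), *Nap1l5* at chr6:58907127-58907376 (−), *Meg3* at chr12:109540746-109540995 (+) and *Zdbf2* at chr1:63200108-63200357 (+).
Mest: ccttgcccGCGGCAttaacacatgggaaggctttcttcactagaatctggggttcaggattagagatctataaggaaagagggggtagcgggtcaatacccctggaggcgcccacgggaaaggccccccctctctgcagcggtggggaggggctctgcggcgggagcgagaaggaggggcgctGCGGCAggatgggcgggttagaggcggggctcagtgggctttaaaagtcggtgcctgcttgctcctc
Nap1l5: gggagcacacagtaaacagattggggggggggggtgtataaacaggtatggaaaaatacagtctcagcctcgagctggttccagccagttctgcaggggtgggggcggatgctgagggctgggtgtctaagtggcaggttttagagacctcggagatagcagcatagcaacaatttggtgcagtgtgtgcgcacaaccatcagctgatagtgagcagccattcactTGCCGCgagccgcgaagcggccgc
Meg3: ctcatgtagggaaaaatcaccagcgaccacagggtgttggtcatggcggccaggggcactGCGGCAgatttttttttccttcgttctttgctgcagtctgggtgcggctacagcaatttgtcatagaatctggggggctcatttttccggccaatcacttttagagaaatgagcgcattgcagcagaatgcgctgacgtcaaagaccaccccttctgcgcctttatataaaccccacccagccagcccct
Zdbf2: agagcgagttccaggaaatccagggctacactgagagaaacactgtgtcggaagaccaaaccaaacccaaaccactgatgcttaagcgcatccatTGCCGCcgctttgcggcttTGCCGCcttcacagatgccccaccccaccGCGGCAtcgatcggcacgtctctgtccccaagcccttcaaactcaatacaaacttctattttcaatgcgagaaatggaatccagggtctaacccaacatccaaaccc
In the printed windows *Zdbf2* held 3 copies of the motif, *Mest* 2, and *Nap1l5* and *Meg3* 1 each. *Zdbf2*, *Mest* and *Meg3* each also had a listed start site whose window held 0 copies. *H19*, *Rtl1*, *Peg10*, *Sgce*, *Cdkn1c*, *Kcnq1*, *Nespas*, *Impact* and *Peg13* had no entry.

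*H19* lies at chr7:142575530-142578146 on the minus strand, 72622 bases from *Igf2* (chr7:142650768-142666816), and its transcript holds the miR-675 hairpin. Its mature microRNAs, at chr7:142577112-142577133 and chr7:142577078-142577099, are shown with the seed (bases 2 to 8) in capitals because they are cut from the RNA with the largest differences between KO and WT below, although small RNAs were not measured here.
miR-675-5p: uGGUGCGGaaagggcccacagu
miR-675-3p: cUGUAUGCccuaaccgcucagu

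RNA-seq was available from 18 samples. WT F1G4 mESCs were sampled as ES aggregates (the embryoid body stage, before differentiation) and after 1, 2 and 3 days in medium with 20 ng/ml Bmp4, with 2 samples a stage. *Eomes* KO and *T* KO cells were expanded from single F1G4 clones that had lost the promoter and first exon of the gene to paired nickases, and *Eomes/T* dKO cells were made in turn from the *Eomes* KO line, so the dKO is not independent of it. These 3 lines were sampled on days 2 and 3, with 1 sample each by the labels, although legends in the study describe RNA-seq values as averages of replicates. *Smad4* KO cells were cloned, after transient Cre, from a line of 129S/SvEvxC57BL/6 background with a floxed first exon of *Smad4*, and were sampled with that unrecombined parent (*Smad4* WT) on days 1 and 2, with 1 sample each. All lines were grown on fibroblast feeder cells, which were removed before aggregation, and all differentiating cells received Bmp4.

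The tables give 1 FPKM value (fragments scaled by transcript length and library size) per gene and condition, so there is no replicate error and no test of any difference. The 2 samples of each F1G4 WT stage are averaged in it. In every KO and Smad4-line column the low values were whole multiples of the value of 1 fragment for 94.9% to 96.1% of genes, within 0.1 of a whole number, which gave 1 library of 18100000 to 37400000 fragments on the tables' normalised scale, and the F1G4 WT columns showed 2 such steps and 49100000 to 55500000 fragments together. Exact Poisson 95% intervals from these fragments cover counting error only. A gene was examined if either column compared held more than 1 FPKM for it and was called where the log2 ratio was above 1 or below −1, the study's own rule. Under it 6 imprinted genes, *Rtl1*, *Usp29*, *Zim1*, *Plagl1*, *Kcnq1* and *Magel2*, had at most 1 FPKM in every condition and could not be called: the highest value among them was 0.936 FPKM, of *Zim1* in the *Eomes* KO on day 3. A gene near 1 FPKM enters only through the column where it is higher, which holds below for *Airn*, *Ascl2*, *Dlk1*, *Kcnq1ot1*, *Nap1l5*, *Peg12*, *Peg13* and *Slc22a18*.

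The targeted genes were checked first. *Eomes* was at 2.42 and 0.276 FPKM in the *Eomes* KO on days 2 and 3 and at 1.24 and 0.346 FPKM in the dKO, against 9.50 and 19.4 FPKM in WT. *T* was at 6.64 and 3.00 FPKM in the *T* KO and at 2.77 and 1.93 FPKM in the dKO, against 43.5 and 319.9 FPKM in WT. *Smad4* was at 39.4 and 46.8 FPKM in the *Smad4* KO against 33.8 and 39.3 FPKM in *Smad4* WT on days 1 and 2. A value over the whole gene is dominated by the exons that were kept, so it does not check the deletion of the first exon.

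Most imprinted genes that moved during normal differentiation went up. On day 1, against WT ES aggregates, 4 of 26 imprinted genes examined were called (15.4%, against 13.5% of all genes), 1 lower (5.84% of all genes) and 3 higher (7.7%). *Slc22a18* was lower and *Igf2*, *Grb10* and *Nnat* were higher. On day 2, 12 of 26 imprinted genes examined were called (46.2%, against 23.3% of all genes), 1 lower (9.08% of all genes) and 11 higher (14.2%). *Slc22a18* was lower and *H19*, *Igf2*, *Rian*, *Peg10*, *Sgce*, *Grb10*, *Cdkn1c*, *Ascl2*, *Ndn*, *Nnat* and *Gnas* were higher. On day 3, 13 of 28 imprinted genes examined were called (46.4%, against 31.1% of all genes), 2 lower (12.6% of all genes) and 11 higher (18.5%). *Kcnq1ot1* and *Slc22a18* were lower and *H19*, *Igf2*, *Peg10*, *Sgce*, *Grb10*, *Igf2r*, *Airn*, *Cdkn1c*, *Ndn*, *Nnat* and *Gnas* were higher. The median log2 ratio of the imprinted genes examined was 0.57, 0.54 and 0.53 on days 1, 2 and 3, against −0.06, −0.04 and −0.02 over all genes examined. Rescaling the columns to a common sum (TPM) raised the count on day 1 to 10, of which 9 were higher. In bulk samples a higher level may come from more cells of a type or from more RNA per cell, which cannot be told apart.

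**Figure D1:**
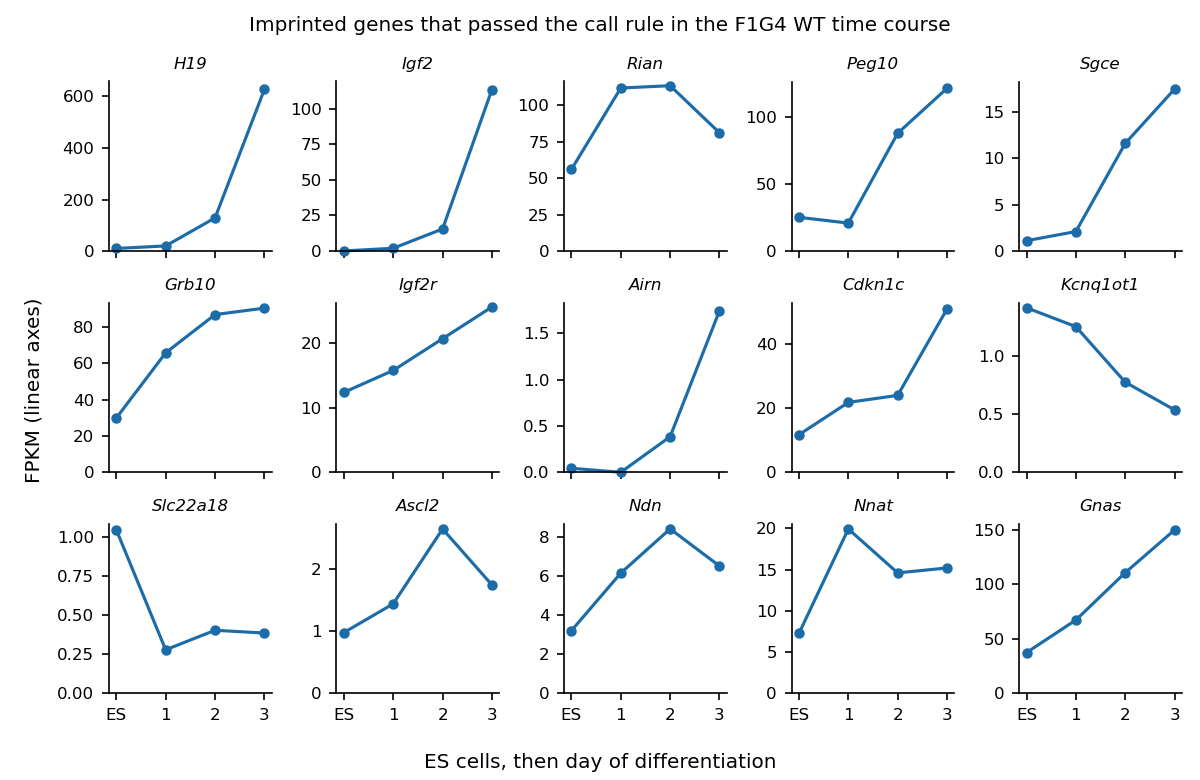
FPKM of the 15 imprinted genes that passed the call rule on at least one day of the F1G4 WT time course, on linear axes from 0, in ES aggregates and on days 1, 2 and 3. *H19* and *Igf2* climb most steeply, to 627 and 113 FPKM on day 3, while *Kcnq1ot1* and *Slc22a18* end below their ES values. Each point is 1 value per stage, so no error bar is drawn.

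The *H19/Igf2* cluster held the largest fold differences among the genes called on day 3. *H19* was at 10.4, 20.2, 129 and 627 FPKM in WT ES aggregates and on days 1, 2 and 3, a 60.4-fold higher level on day 3 than in ES aggregates. *Igf2* was at 0.151, 2.02, 15.6 and 113 FPKM over the same stages and thus started near 0. On day 3 *H19* was the 104th highest gene of the table, and its level per length was 5.53 times that of *Igf2*.

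In the KO lines derived from F1G4, *H19* was nearly lost. On day 2 it was at 0.741 FPKM in the *Eomes* KO, 0.992 FPKM in the *T* KO and 1.16 FPKM in the dKO, against 128, 133 and 127 FPKM in the WT columns of the same tables. On day 3 it was at 3.25, 3.10 and 4.49 FPKM against 654, 632 and 651 FPKM. All 6 KO values lay below the 10.4 FPKM of undifferentiated WT ES aggregates. The level was 172-fold, 134-fold and 109.7-fold lower on day 2 in the *Eomes* KO, the *T* KO and the dKO, and 202-fold, 204-fold and 145-fold lower on day 3 (log2 ratios from −7.67 in the *T* KO on day 3 to −6.78 in the dKO on day 2). The RNA was still counted in every one of these libraries. The lowest count was 41 fragments, in the *T* KO on day 2 (95% interval 29.4 to 55.6), and the *Eomes* KO on the same day had 48 (35.4 to 63.6). From day 2 to day 3 *H19* went up in the KO lines as well, 4.38-fold in the *Eomes* KO, 3.12-fold in the *T* KO and 3.87-fold in the dKO, beside 4.87-fold in WT, these being ratios across tables. The 3 lines share their WT samples, and the dKO descends from the *Eomes* KO. The KO lines were expanded from single clones, and no undifferentiated KO cells were sampled for RNA. Effects of the deletion and of the clone on *H19* therefore cannot be told apart. The summed FPKM of 8 markers of nascent mesoderm was lower in the same columns. On day 3 it was 447 in WT against 9.14, 32.6 and 23.1 in the *Eomes* KO, the *T* KO and the dKO. On day 2 it was 87.8 against 44.9, 64.7 and 23.4. The 8 include the targeted *T* and *Eomes*, and *T* alone gave 319.9 FPKM in WT on day 3 and 43.55 on day 2. On day 3 all 8 were called lower in each line. In the *T* KO on day 2 *T*, *Mixl1* and *Fgf8* were called lower, while *Eomes* (24.7 against 9.50 FPKM) and *Evx1* (7.53 against 3.505 FPKM) were called higher. The part of these markers in the *H19* result was not tested.

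*Igf2* did not follow *H19* in these lines. On day 2 it was at 5.52 FPKM in the *Eomes* KO, 12.7 FPKM in the *T* KO and 7.89 FPKM in the dKO, against 15.4 to 16.0 FPKM in the WT columns, and only the *Eomes* KO passed the rule (log2 ratio −1.48). On day 3 it was at 422, 239 and 197 FPKM against 114 to 118 FPKM, called higher in the *Eomes* KO (3.57-fold) and in the *T* KO (2.09-fold) and not in the dKO (log2 ratio 0.74). The order of the RNAs was turned round: *H19* exceeded *Igf2* 8.28-fold and 5.53-fold per length in WT on days 2 and 3, and *Igf2* exceeded *H19* in all 6 KO columns, by 6.80-fold in the dKO on day 2 up to 130-fold in the *Eomes* KO on day 3. Across the 14 conditions the log2(FPKM + 1) values of *H19* and *Igf2* had a Pearson r of −0.19, given as a description since the columns share lines and scaling.

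**Figure D2:**
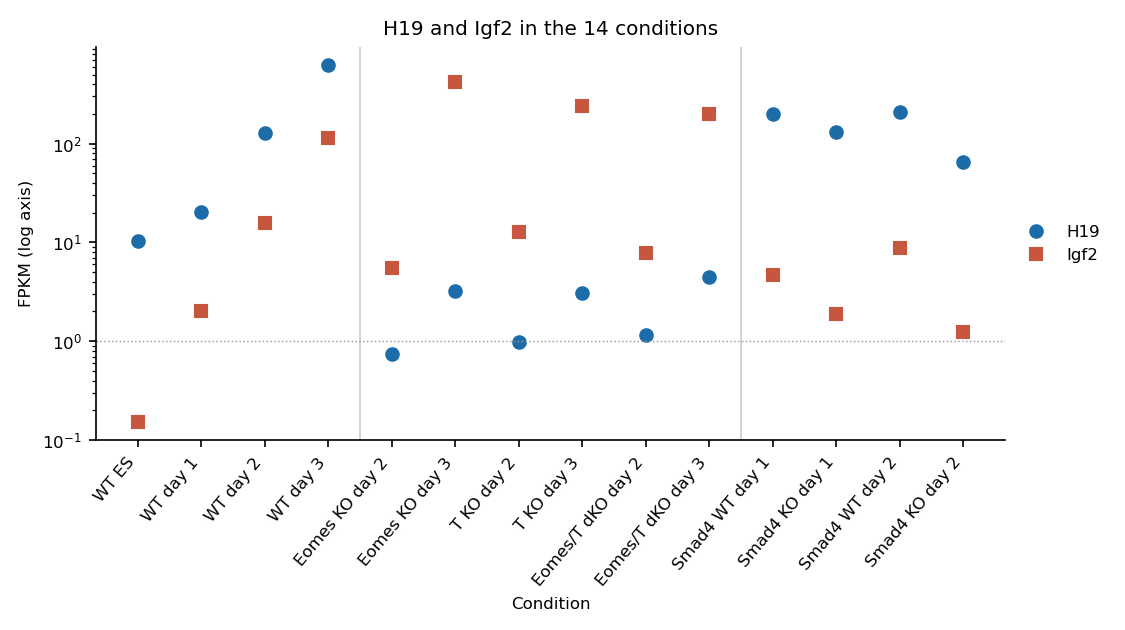
FPKM of *H19* (circles) and *Igf2* (squares) in the 14 conditions, on a log axis, with the dotted line at 1 FPKM and vertical lines between the F1G4 WT, F1G4 KO and Smad4-line columns. *H19* lies between 0.741 and 4.49 FPKM in the 6 F1G4 KO columns and between 10.4 and 627 FPKM in the other 8. *Igf2* on day 3 lies between 197 and 422 FPKM in the KO lines, above the 113 FPKM of WT.

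The *Smad4* line behaved otherwise. *H19* was at 201 and 208 FPKM in *Smad4* WT on days 1 and 2 and at 131 and 64.7 FPKM in the *Smad4* KO, so that it was called lower on day 2 (3.21-fold) and not on day 1 (log2 ratio −0.62). *Igf2* was at 4.66 and 8.87 FPKM in *Smad4* WT and at 1.89 and 1.24 FPKM in the *Smad4* KO, 2.47-fold and 7.14-fold lower. *H19* thus stayed above *Igf2* in the *Smad4* KO, by 69.5-fold and 52.1-fold per length, against 43.1-fold and 23.5-fold in *Smad4* WT.

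Genes within 300000 bases of *H19* were looked at after its values were seen, and several were called in the *Eomes* KO on day 3. *Mrpl23*, a mitochondrial ribosomal protein gene 34783 bases away, was at 68.4 FPKM in the *Eomes* KO on day 2 against 55.8 in WT and at 82.1 FPKM in the *T* KO on day 3 against 62.4 in WT, and its log2 ratio lay between −0.20 and 0.53 over the 6 F1G4 KO comparisons. *Ctsd*, a lysosomal protease gene 187703 bases away, had log2 ratios between −0.29 and 0.45, so that neither was called. *Lsp1*, an actin-binding protein gene of leukocytes 80662 bases away, was called higher on day 3 in the *Eomes* KO (9.35 against 3.06 FPKM) and the dKO (8.75 against 3.04 FPKM). Syt8 (log2 ratio 1.45), Tnni2 (1.09) and Igf2os (1.45) were called higher in the *Eomes* KO on day 3 and in no other KO comparison. *Tnnt3*, a troponin T gene 59317 bases away, was called in 3 of the 6 F1G4 KO comparisons. In the *Eomes* KO it was at 0.576 FPKM against 2.09 in WT on day 2 and at 30.3 against 11.1 on day 3. In the dKO on day 3 it was at 33.1 against 11.0. *Tnnt3* was also called lower in the *Smad4* KO on day 1 (0.0427 against 1.51 FPKM). The median log2 ratio of all genes examined on chromosome 7 lay between −0.04 and 0.06 over the 8 KO comparisons.

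The 5 genes whose log2(FPKM + 1) values ran closest to those of *H19* over the 14 conditions, out of 12589 compared, were *Mfsd1* and *Rsph3b* (Pearson r of 0.91 each), *Ripk3* and *Actg1* (0.90 each) and *Klk8* (0.88). *Rsph3b*, a radial spoke protein gene, was at 3.05 and 4.33 FPKM in WT on days 2 and 3 and between 0.263 and 0.914 FPKM in the 6 F1G4 KO columns, and *Actg1*, cytoplasmic gamma-actin, at 323 and 340 FPKM in WT against 99.8 to 203 FPKM. In the Smad4-line columns *Rsph3b* was at 1.26 to 1.88 FPKM and *Actg1* at 237 to 286 FPKM.

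Under the main rule the share of imprinted genes called was above the share of all genes in every comparison, which is read here only as a description because the genes were chosen with these values known. The shares were close in WT on day 1 (15.4% against 13.5%). Between the WT lines on day 2, a minimum of 5 FPKM left no imprinted gene called. In the *Smad4* KO on day 1, 8 of 27 imprinted genes examined were called (29.6%, against 4.77% of all genes), 5 lower (2.41% of all genes) and 3 higher (2.36%). *Igf2*, *Peg10*, *Grb10*, *Phlda2* and *Ascl2* were lower and *Snrpn*, *Peg12* and *Nap1l5* were higher. On day 2 of the same line, 8 of 26 imprinted genes examined were called (30.8%, against 5.77% of all genes), 5 lower (3.21% of all genes) and 3 higher (2.56%). *H19*, *Igf2*, *Peg3*, *Peg10* and *Grb10* were lower and *Snrpn*, *Ndn* and *Nap1l5* were higher. In the *Eomes* KO on day 2, 7 of 25 imprinted genes examined were called (28%, against 7.52% of all genes), 5 lower (4.17% of all genes) and 2 higher (3.35%). *H19*, *Igf2*, *Peg10*, *Ascl2* and *Zdbf2* were lower and *Mirg* and *Phlda2* were higher. On day 3, 12 of 28 imprinted genes examined were called (42.9%, against 16.4% of all genes), 3 lower (9.01% of all genes) and 9 higher (7.39%). *H19*, *Snrpn* and *Peg12* were lower and *Igf2*, *Meg3*, *Rian*, *Dlk1*, *Peg10*, *Mest*, *Airn*, *Kcnq1ot1* and *Nnat* were higher. In the *T* KO on day 2, 10 of 26 imprinted genes examined were called (38.5%, against 15.6% of all genes), 6 lower (9.93% of all genes) and 4 higher (5.7%). *H19*, *Peg10*, *Ascl2*, *Snrpn*, *Ndn* and *Slc38a4* were lower and *Meg3*, *Mirg*, *Airn* and *Kcnq1ot1* were higher. On day 3 of that line, 5 of 27 imprinted genes examined were called (18.5%, against 6.04% of all genes), 3 lower (3.92% of all genes) and 2 higher (2.12%). *H19*, *Peg12* and *Zdbf2* were lower and *Igf2* and *Ascl2* were higher. In the dKO on day 2, 5 of 24 imprinted genes examined were called (20.8%, against 7.99% of all genes), 4 lower (4.5% of all genes) and 1 higher (3.48%). *H19*, *Peg10*, *Ascl2* and *Zdbf2* were lower and *Phlda2* was higher. On day 3, 6 of 26 imprinted genes examined were called (23.1%, against 11% of all genes), 2 lower (5.53% of all genes) and 4 higher (5.51%). *H19* and *Peg12* were lower and *Meg3*, *Mirg*, *Ndn* and *Nnat* were higher.

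The median log2 ratio of the imprinted genes examined stayed near that of all genes in most comparisons, and the called genes went both ways. It was 0.07 and 0.18 in the *Smad4* KO on days 1 and 2, −0.02 and 0.36 in the *Eomes* KO on days 2 and 3, 0.01 and −0.11 in the *T* KO and −0.21 and 0.06 in the dKO. Over all genes examined it lay between −0.04 and 0.00. Rescaling to TPM moved all log2 ratios by a median of −0.22 in the *Eomes* KO on day 2, 0.28 on day 3, 0.12 in the *T* KO on day 2 and −0.41 in the dKO on day 2. The split of called imprinted genes into lower and higher was then 6 and 1, 3 and 13, 6 and 4, and 10 and 0, in place of 5 and 2, 3 and 9, 6 and 4, and 4 and 1. In the dKO on day 3 (shift −0.11) it was 6 lower and 2 higher in place of 2 and 4. The share of lower genes among all genes called moved from 55.5% to 72.9%, from 55% to 28%, from 63.5% to 48% and from 56.4% to 87% in the first 4 of these.

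**Figure D3:**
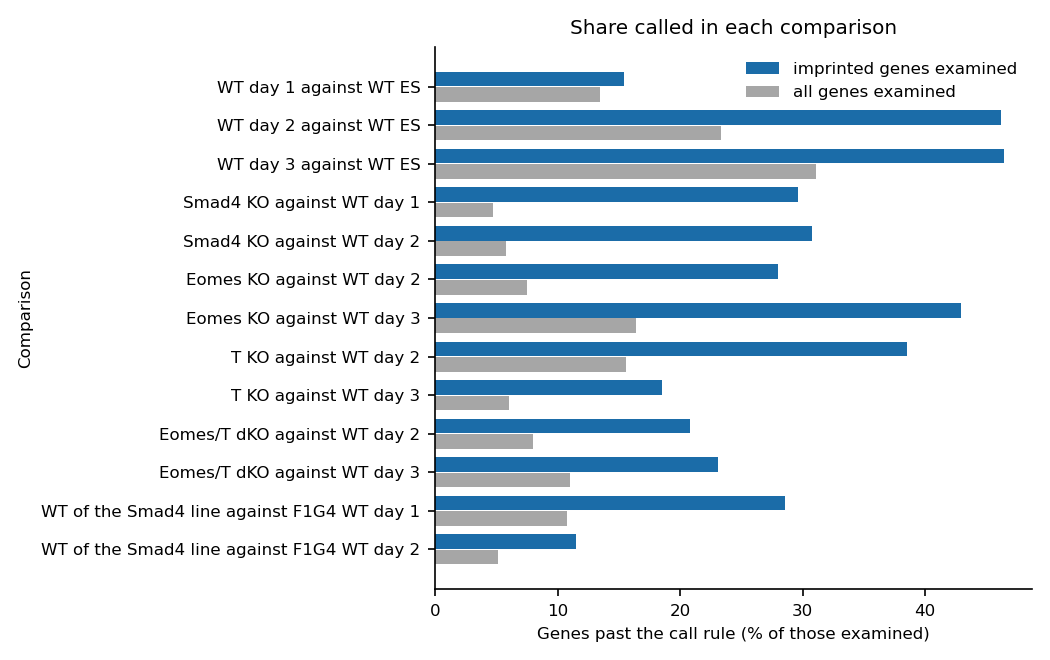
Share of the imprinted genes examined (blue bars) and of all genes examined (grey bars) that passed the call rule, in percent, in each of the 13 comparisons. The blue bar is longer in each one, from 11.5% against 5.15% between the WT lines on day 2 to 46.4% against 31.1% in WT on day 3. The bars are close in WT on day 1, at 15.4% against 13.5%.

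Counts by parental allele were small. Among maternally expressed genes, 3 of 11 were called lower and 0 higher in the *Smad4* KO on day 1, and 2 of 10 and 0 on day 2 (2.41% and 3.21% lower over all genes). In the *Eomes* KO it was 2 lower and 2 higher of 11 on day 2 and 1 and 2 of 11 on day 3, in the *T* KO 2 and 2 of 11 and then 1 and 1 of 11, and in the dKO 2 and 1 of 11 and then 1 and 2 of 11. Among paternally expressed genes, 2 of 15 were called lower and 3 higher in the *Smad4* KO on day 1, and 3 and 3 of 15 on day 2 (2.36% and 2.56% higher over all genes). In the *Eomes* KO it was 3 and 0 of 13 on day 2 and 2 and 7 of 16 on day 3 (9.01% lower and 7.39% higher over all genes), in the *T* KO 4 and 2 of 14 and then 2 and 1 of 15, and in the dKO 2 and 0 of 12 and then 1 and 2 of 14. The maternally expressed genes called in the *Smad4* KO and the paternally expressed genes called in the *Eomes* KO and dKO on day 2 were thus all lower. The other shares of all genes are those given above for each comparison.

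**Figure D4:**
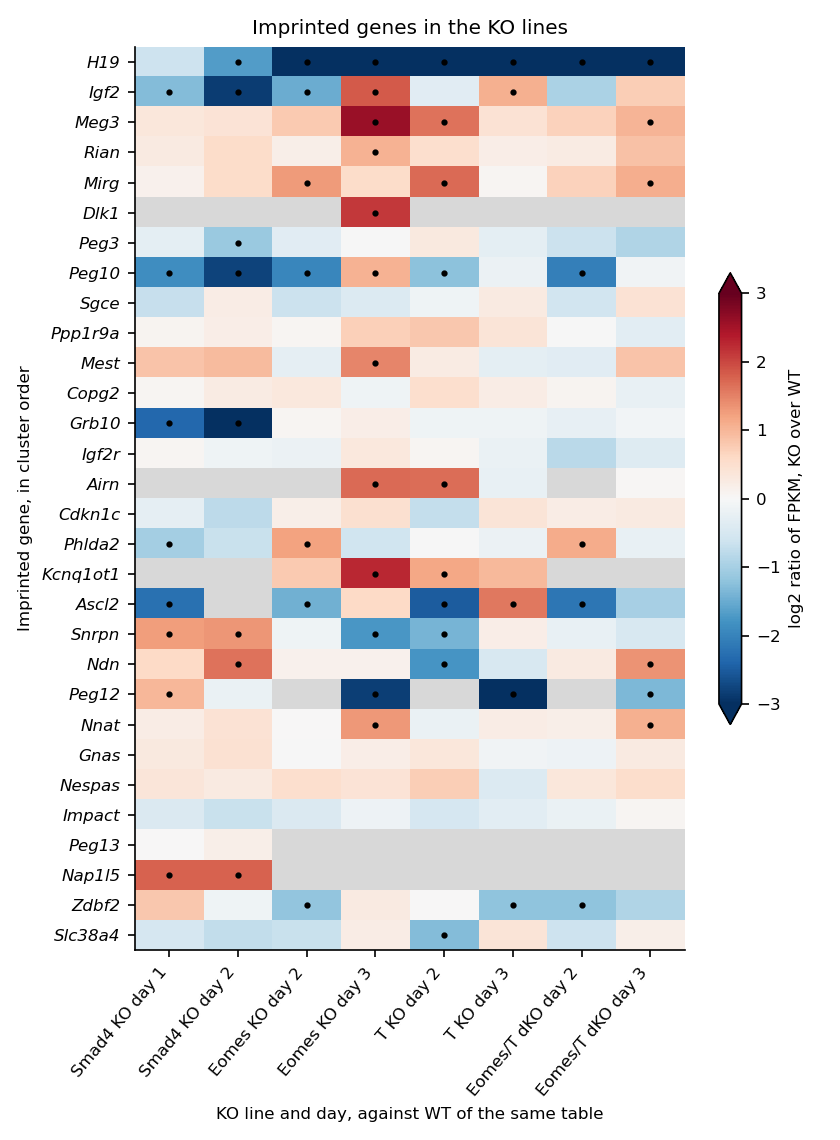
log2 ratio of FPKM, KO over WT of the same table, for the 30 imprinted genes examined in at least one of the 8 KO comparisons, in cluster order. Colours saturate at −3 and 3, dots mark calls and grey marks genes not examined. *H19* is saturated in all 6 F1G4 KO columns, *Grb10* is called only in the 2 *Smad4* KO columns, and *Peg10* is called lower in 5 columns and higher in the *Eomes* KO on day 3.

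The *Dlk1-Dio3* cluster on chromosome 12, whose maternal copy makes a run of non-coding RNAs, held genes called higher in 4 of the 6 F1G4 KO columns, in each case some of its RNAs and not all. *Meg3*, a long non-coding RNA (chr12:109540996-109571729), was at 4.00, 7.48, 4.32 and 3.61 FPKM in WT ES aggregates and on days 1 to 3. On days 2 and 3 it was at 7.39 and 22.8 FPKM in the *Eomes* KO, 13.7 and 4.96 FPKM in the *T* KO and 6.84 and 7.60 FPKM in the dKO. It was called higher in the *Eomes* KO on day 3 (6.05-fold), in the *T* KO on day 2 (3.08-fold) and in the dKO on day 3 (2.03-fold), each against the WT column of the same table, and the dKO call was lost with TPM (log2 ratio 0.91). The window printed above lies directly before its annotated start.

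*Mirg*, which hosts microRNAs, was at 6.54, 11.6, 7.72 and 8.31 FPKM in WT and at 18.6 and 12.7 FPKM in the *Eomes* KO, 25.7 and 8.77 FPKM in the *T* KO and 12.3 and 18.6 FPKM in the dKO on days 2 and 3. It passed the rule in the *Eomes* KO on day 2 (2.42-fold), in the *T* KO on day 2 (3.23-fold) and in the dKO on day 3 (2.15-fold), where TPM gave a log2 ratio of 0.99. *Rian*, host of small nucleolar RNAs, was the most abundant of the 3 at 56.1, 112, 114 and 81.3 FPKM in WT. On days 2 and 3 it was at 126 and 175 FPKM in the *Eomes* KO, 167 and 94.0 FPKM in the *T* KO and 134 and 154 FPKM in the dKO, and was called only in the *Eomes* KO on day 3 (2.06-fold). In the *T* KO on day 3 the log2 ratios were 0.20 for *Rian*, 0.06 for *Mirg* and 0.44 for *Meg3*, none of them called.

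Over the 14 conditions the Pearson r between pairs of these 3 RNAs was 0.67 to 0.73. In the *Smad4* line none was called: *Meg3* was at 4.46 and 3.10 FPKM in *Smad4* WT and 5.70 and 4.12 FPKM in the *Smad4* KO, *Rian* at 119.9 and 93.1 FPKM and 143 and 137 FPKM, and *Mirg* at 8.02 and 5.99 FPKM and 8.73 and 8.69 FPKM. The KO value was the higher one on both days for each of the 3. *Dlk1*, the paternally expressed Notch ligand relative of this cluster, was above 1 FPKM only in the *Eomes* KO on day 3, at 1.13 FPKM against 0.257 FPKM in WT. On day 2 it was at 0.301, 0.293 and 0.286 FPKM in the *Eomes* KO, the *T* KO and the dKO, against 0.326 FPKM in WT. The median log2 ratio of all genes examined on chromosome 12 lay between −0.09 and 0.00 over the 8 KO comparisons.

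*Grb10* (chr11:11930499-12037428) was higher during normal differentiation and lower in the *Smad4* KO. It was at 29.9, 65.8, 86.9 and 90.5 FPKM in F1G4 WT ES aggregates and on days 1 to 3, and was called higher on all 3 days. In *Smad4* WT it was at 36.5 and 58.2 FPKM on days 1 and 2, and in the *Smad4* KO at 7.15 and 6.76 FPKM, 5.10-fold and 8.61-fold lower. The KO libraries held 814 and 1113 fragments of *Grb10* at the least, with 95% intervals of 6.67 to 7.66 FPKM and 6.37 to 7.17 FPKM, against 35.4 to 37.6 FPKM and 57.1 to 59.4 FPKM in *Smad4* WT. In the F1G4 KO lines it was at 89.4 and 109 FPKM in the *Eomes* KO, 81.7 and 84.3 FPKM in the *T* KO and 72.6 and 88.8 FPKM in the dKO on days 2 and 3, never called. The *Smad4* KO values were the lowest of the 14 conditions.

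*Peg10*, a retrotransposon-derived gene needed for the placenta, was the member called in most KO comparisons after *H19*. It was at 25.1, 20.9, 87.7 and 121 FPKM in F1G4 WT. On day 2 it was at 22.3 FPKM in the *Eomes* KO, 38.2 FPKM in the *T* KO and 20.6 FPKM in the dKO, 3.88-fold, 2.35-fold and 4.18-fold lower than WT. The day 2 values of the *Eomes* KO and dKO lay within or just under the range of WT ES aggregates and day 1. On day 3 it was at 262 FPKM in the *Eomes* KO, called 2.07-fold higher, and at 108 and 117 FPKM in the *T* KO and dKO, not called. In *Smad4* WT it was at 43.3 and 53.3 FPKM on days 1 and 2 and in the *Smad4* KO at 11.9 and 7.81 FPKM, 3.62-fold and 6.82-fold lower.

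*Sgce*, the epsilon-sarcoglycan gene, is read away from *Peg10* and shares its control region. It was at 1.12, 2.11, 11.6 and 17.4 FPKM over the WT stages, and was at 7.31 and 13.6 FPKM in the *Eomes* KO, 10.9 and 21.2 FPKM in the *T* KO and 7.69 and 24.5 FPKM in the dKO. In the *Smad4* line it was at 9.88 and 6.96 FPKM in WT and 6.06 and 8.10 FPKM in the KO. No KO comparison called it, and where *Peg10* was called lower in the *Smad4* KO on day 2, the log2 ratio of *Sgce* was 0.22. Their Pearson r over the 14 conditions was 0.63. *Ppp1r9a*, the neurabin gene of the same cluster, stayed between 3.25 and 8.49 FPKM with no call.

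The paternally expressed genes of the *Snrpn* cluster on chromosome 7 were called higher in the *Smad4* KO, each on at least one day except *Magel2*, and lower in some F1G4 KO columns. *Snrpn*, a component of small nuclear ribonucleoproteins, was at 115, 178, 104 and 112 FPKM in F1G4 WT. It was at 136 and 141 FPKM in *Smad4* WT on days 1 and 2 and at 323 and 353 FPKM in the *Smad4* KO, 2.38-fold and 2.51-fold higher. In the *T* KO it was at 40.6 and 130.0 FPKM on days 2 and 3, in the *Eomes* KO at 94.8 and 35.2 FPKM and in the dKO at 88.5 and 84.0 FPKM. It was called lower in the *T* KO on day 2 (2.64-fold) and in the *Eomes* KO on day 3 (3.34-fold), and in neither line on the other day.

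*Ndn* (necdin, of the MAGE family) was at 3.21, 6.15, 8.41 and 6.51 FPKM in F1G4 WT, and in the *Smad4* line at 14.7 and 6.72 FPKM in WT and 22.3 and 20.7 FPKM in the KO, called on day 2 (3.08-fold higher). It was at 2.54 and 4.74 FPKM in the *T* KO, 9.07 and 7.52 FPKM in the *Eomes* KO and 10.0 and 17.2 FPKM in the dKO, called lower in the *T* KO on day 2 (3.40-fold) and higher in the dKO on day 3 (2.54-fold). Both *Snrpn* and *Ndn* were thus called lower in the *T* KO on day 2, whereas in the dKO on day 3 *Ndn* was called higher and the log2 ratio of *Snrpn* was −0.48. Their Pearson r over the 14 conditions was 0.55.

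*Peg12*, a Frat family gene of the same cluster, was low in F1G4 WT at 0.759, 0.397, 0.389 and 1.06 FPKM and lower in the F1G4 KO lines on day 3, at 0.155, 0.0506 and 0.43 FPKM in the *Eomes* KO, the *T* KO and the dKO. These are 10, 5 and 23 fragments, so the 21.0-fold lower level in the *T* KO rests on very few. On day 2 the KO values were 0.268, 0.146 and 0.148 FPKM, and the gene was not examined. It was at 2.57 and 2.10 FPKM in *Smad4* WT and 5.14 and 1.81 FPKM in the *Smad4* KO, called on day 1 at the edge of the rule (2.00-fold higher). *Magel2* stayed below 1 FPKM throughout but was at 0.826 and 0.875 FPKM in the *Smad4* KO against 0.227 and 0.231 FPKM in *Smad4* WT.

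Of *Mest* and *Nap1l5* on chromosome 6, both paternally expressed and with the motif in the windows printed above, *Nap1l5* was called higher in the *Smad4* KO on both days and *Mest* on neither. *Nap1l5*, a nucleosome assembly protein relative inside the *Herc3* gene, was at 1.03 and 0.705 FPKM in *Smad4* WT and 3.49 and 2.38 FPKM in the *Smad4* KO, 3.40-fold and 3.38-fold higher, on 46 against 158 fragments on day 1 and 47 against 156 on day 2. It was below 1 FPKM in all 10 F1G4 columns. *Mest*, a hydrolase fold protein, was at 40.6 and 39.8 FPKM in *Smad4* WT and 73.0 and 77.0 FPKM in the *Smad4* KO, short of the rule with log2 ratios of 0.85 and 0.95. It was at 33.9, 50.6, 37.6 and 41.9 FPKM in F1G4 WT and at 30.8 and 121 FPKM in the *Eomes* KO, called only on day 3 (2.76-fold higher), and at 45.7 and 34.4 FPKM in the *T* KO and 29.6 and 79.0 FPKM in the dKO.

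**Figure D5:**
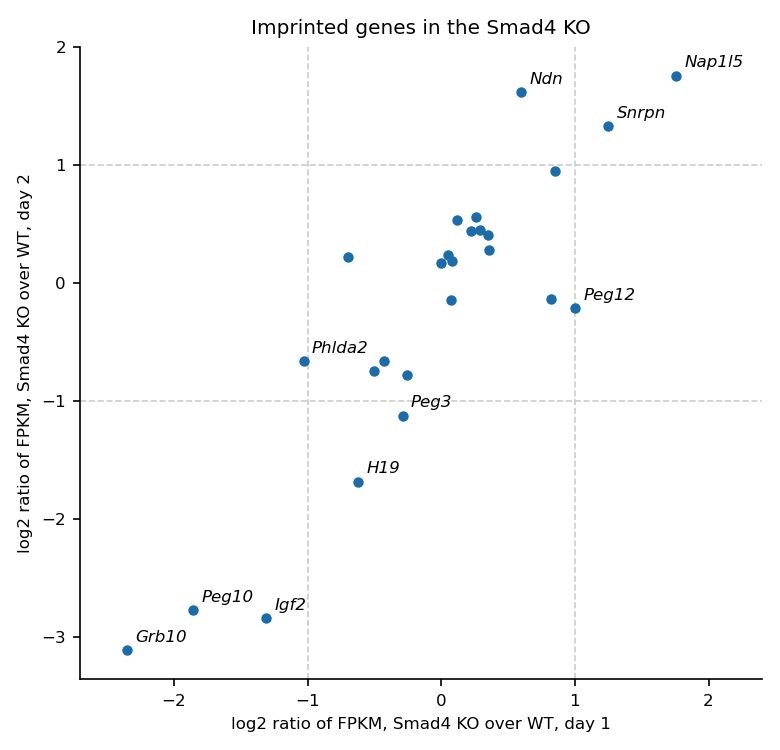
log2 ratio of FPKM, *Smad4* KO over *Smad4* WT, on day 1 (horizontal) and day 2 (vertical) for the 26 imprinted genes examined on both days, with dashed lines at −1 and 1 and names for genes called on either day. *Grb10*, *Peg10* and *Igf2* lie in the lower left corner on both days, and *Nap1l5* and *Snrpn* in the upper right.

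*Copg2*, a coatomer subunit gene whose end overlaps that of *Mest*, was called in no comparison. It was at 15.8, 18.6, 22.0 and 28.1 FPKM in F1G4 WT, at 27.4 and 26.9 FPKM in the *Eomes* KO, 32.1 and 33.1 FPKM in the *T* KO and 23.0 and 24.9 FPKM in the dKO, and at 17.7 and 18.5 FPKM in *Smad4* WT and 18.4 and 21.8 FPKM in the *Smad4* KO. The libraries were strand-specific, but the alignment and counting options given for them name no strand setting, so it is not known whether the counting used strand, and reads of overlapping or antisense pairs (*Mest* and *Copg2*, *Igf2r* and *Airn*, *Kcnq1* and *Kcnq1ot1*, *Gnas* and *Nespas*) may not be separated.

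In the *Kcnq1* cluster, the growth-limiting genes did not move as one. *Cdkn1c* was at 11.7, 21.7, 23.9 and 50.8 FPKM in F1G4 WT, called higher on days 2 and 3. It was at 26.8 and 74.3 FPKM in the *Eomes* KO, 15.1 and 66.5 FPKM in the *T* KO and 27.5 and 62.9 FPKM in the dKO. In *Smad4* WT it was at 26.0 and 13.0 FPKM and in the *Smad4* KO at 21.8 and 7.55 FPKM, and no KO comparison called it. *Phlda2* was at 34.1, 33.7, 31.9 and 48.7 FPKM in F1G4 WT, and was called higher on day 2 in the *Eomes* KO (73.2 FPKM, 2.31-fold) and in the dKO made from it (68.5 FPKM, 2.17-fold). It was at 32.7 and 43.7 FPKM in the *T* KO on days 2 and 3, and at 33.6 and 43.2 FPKM in the *Eomes* KO and dKO on day 3. In the *Smad4* line it was at 45.7 and 22.3 FPKM in WT and 22.4 and 14.1 FPKM in the KO, called lower on day 1 (2.04-fold). After rescaling to TPM neither the 2 higher calls nor the lower one held, with log2 ratios of 0.99, 0.71 and −0.97.

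*Ascl2*, a basic helix-loop-helix factor of trophoblast, was low throughout but called in 5 KO comparisons. It was at 0.982, 1.45, 2.65 and 1.75 FPKM in F1G4 WT. On day 2 it was at 0.964, 0.48 and 0.581 FPKM in the *Eomes* KO, the *T* KO and the dKO, 2.72-fold, 5.67-fold and 4.50-fold lower, on 44, 14 and 24 fragments. On day 3 it was at 2.77 FPKM in the *Eomes* KO, 5.30 FPKM in the *T* KO, 3.00-fold higher than WT, and 0.919 FPKM in the dKO. In the *Smad4* line it was at 2.71 and 0.898 FPKM in WT and 0.571 and 0.395 FPKM in the KO, 4.73-fold lower on day 1. *Kcnq1ot1*, the long antisense RNA of the cluster, was at 1.42, 1.26, 0.777 and 0.538 FPKM in F1G4 WT and was called higher in the *Eomes* KO on day 3 (2.71 FPKM) and in the *T* KO on day 2 (1.79 FPKM). *Slc22a18*, a transporter, was above 1 FPKM only in WT ES aggregates, at 1.05 FPKM, and called lower on all 3 days.

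*Igf2r* was at 12.4, 15.8, 20.7 and 25.7 FPKM in F1G4 WT, called higher on day 3, and was not called in any KO line: it was at 18.2 and 33.6 FPKM in the *Eomes* KO, 22.2 and 22.4 FPKM in the *T* KO, 11.6 and 20.6 FPKM in the dKO, and 17.7 and 21.2 FPKM in *Smad4* WT and 18.5 and 19.3 FPKM in the *Smad4* KO. *Airn*, its antisense RNA, was listed at 0 in F1G4 WT on day 1 and reached 1.75 FPKM on day 3. It was called higher in the *Eomes* KO on day 3, at 5.95 FPKM against 1.82 FPKM in WT, and in the *T* KO on day 2, at 1.26 against 0.394 FPKM. The Pearson r of *Igf2r* and *Airn* over the 14 conditions was 0.79.

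*Nnat*, the neuronatin gene, was called higher on each day of the F1G4 WT course, at 7.28, 19.9, 14.6 and 15.2 FPKM. It was at 14.6 and 39.0 FPKM in the *Eomes* KO, 13.2 and 17.8 FPKM in the *T* KO and 16.3 and 33.1 FPKM in the dKO, called higher on day 3 in the *Eomes* KO (2.46-fold) and the dKO (2.10-fold), the latter lost with TPM (log2 ratio 0.96). It was at 24.1 and 20.2 FPKM in *Smad4* WT and 28.1 and 27.4 FPKM in the *Smad4* KO. *Zdbf2*, a zinc finger gene with 3 copies of the motif in the window above, was at 10.1, 9.61, 10.7 and 12.5 FPKM in F1G4 WT and showed no call in that course. It was at 4.61 and 15.8 FPKM in the *Eomes* KO, 11.1 and 5.49 FPKM in the *T* KO and 4.55 and 6.96 FPKM in the dKO, lower on day 2 in the *Eomes* KO and the dKO (2.29-fold and 2.32-fold) and on day 3 in the *T* KO (2.31-fold). It was at 5.29 and 9.80 FPKM in *Smad4* WT and 9.36 and 8.98 FPKM in the *Smad4* KO.

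The remaining abundant genes were called in few KO comparisons or in none. *Gnas*, the stimulatory G protein alpha subunit, was at 37.4, 67.3, 111 and 149.9 FPKM in F1G4 WT, called higher on days 2 and 3. It was at 108 and 178 FPKM in the *Eomes* KO, 144 and 139.9 FPKM in the *T* KO and 98.5 and 187 FPKM in the dKO, and at 88.8 and 98.7 FPKM in *Smad4* WT and 109 and 135 FPKM in the *Smad4* KO, with no KO call. Its antisense RNA *Nespas* stayed between 3.16 and 8.80 FPKM. *Impact*, which restrains the Gcn2 kinase, was at 39.1, 57.2, 59.5 and 52.0 FPKM in F1G4 WT. It was at 43.6 and 49.0 FPKM in the *Eomes* KO, 43.0 and 42.3 FPKM in the *T* KO and 51.1 and 56.9 FPKM in the dKO, at 89.7 and 91.3 FPKM in *Smad4* WT and 66.7 and 58.0 FPKM in the *Smad4* KO, and was called nowhere.

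*Peg3*, a zinc finger gene, was at 94.3, 70.2, 52.0 and 94.2 FPKM in F1G4 WT. It was at 40.3 and 97.6 FPKM in the *Eomes* KO, 65.7 and 77.5 FPKM in the *T* KO and 32.8 and 52.0 FPKM in the dKO, at 18.2 and 44.1 FPKM in *Smad4* WT and 14.9 and 20.2 FPKM in the *Smad4* KO, and was called lower only in the *Smad4* KO on day 2 (2.18-fold). *Slc38a4*, an amino acid transporter, was at 71.1, 48.2, 56.1 and 71.6 FPKM in F1G4 WT. It was at 35.2 and 87.7 FPKM in the *Eomes* KO, 23.3 and 94.4 FPKM in the *T* KO and 36.2 and 83.4 FPKM in the dKO, at 69.8 and 61.2 FPKM in *Smad4* WT and 49.3 and 36.7 FPKM in the *Smad4* KO, and was called lower only in the *T* KO on day 2 (2.48-fold). *Peg13*, a non-coding RNA, lay between 0.364 and 1.21 FPKM and was called in no KO comparison.

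The WT lines differed before any deletion. Between *Smad4* WT and F1G4 WT on day 1, across tables normalised separately, 8 of 28 imprinted genes examined were called (28.6%, against 10.8% of all genes), 2 lower (4.27% of all genes) and 6 higher (6.58%). *Peg3* and *Kcnq1ot1* were lower and *H19*, *Igf2*, *Peg10*, *Sgce*, *Ndn* and *Peg12* were higher. On day 2, 3 of 26 imprinted genes examined were called (11.5%, against 5.15% of all genes), 1 lower (3.62% of all genes) and 2 higher (1.53%). *Ascl2* was lower and *Peg12* and *Peg13* were higher. *H19* was at 201 FPKM in *Smad4* WT on day 1 against 20.2 FPKM in F1G4 WT, 9.93-fold higher, and at 208 against 129 FPKM on day 2. *Peg12* was 6.46-fold and 5.39-fold higher on the 2 days, *Peg3* 3.85-fold lower on day 1, and *Sgce* 4.69-fold higher on day 1, while the call of *Peg10* on day 1 was lost with TPM (log2 ratio 0.94). The median log2 ratio of the imprinted genes was 0.27 and −0.27, against −0.04 and −0.02 over all genes. The nascent mesoderm marker sum was 14.4 FPKM in *Smad4* WT and 7.01 FPKM in F1G4 WT on day 1, so line and stage cannot be told apart.

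Lists around imprinting were read beside these genes. One list held 16 genes of imprint upkeep and of DNA methylation more widely, all examined on day 3 of the F1G4 WT course. Of these, 10 were called lower and 1 higher than in ES aggregates, with a median log2 ratio of −1.33, beside 12.6% lower and 18.5% higher over all genes. The list is mixed, since it also holds *Tet1*, *Tet2* and *Tet3*. *Tet1* and *Tet2* were among the lower genes and *Tet3* was the higher one. *Zfp57* went from 131 to 14.5 FPKM and *Trim28*, its partner, from 501 to 152 FPKM. In the KO lines, 1 of 15 lower and 0 higher in the *Smad4* KO on day 1, 2 of 16 lower on day 2, 1 of 15 higher in the *Eomes* KO on day 2, 1 of 16 lower and 1 higher on day 3, 1 of 15 lower and 1 higher in the *T* KO on day 2, and 0 in the *T* KO on day 3 and in the dKO on both days. Over all genes, the shares called in these 8 comparisons were 4.77% to 16.4%, each given above. Each higher call of this list in the KO lines was of *Tet2*. *Zfp57* was at 19.4, 28.6 and 16.4 FPKM in the *Eomes* KO, the *T* KO and the dKO on day 2 against 17.1 FPKM in WT, and *Ctcf* was at 46.7, 25.9 and 46.7 FPKM against 47.2 FPKM. *Dnmt3l*, the cofactor of de novo DNA methylation, was called lower in 4 of the 8 KO comparisons, in the *Smad4* KO on both days (64.8 against 132 FPKM and 4.59 against 21.9 FPKM), in the *Eomes* KO on day 3 and in the *T* KO on day 2.

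Of 15 genes of the insulin-like growth factor pathway, 13 were examined on day 3 of the F1G4 WT course and 8 were called higher and 0 lower, with a median log2 ratio of 1.29, beside 18.5% higher and 12.6% lower over all genes. In the KO lines, 1 was called lower and 1 higher in the *Smad4* KO on days 1 and 2 and in the *Eomes* KO on day 3, 1 lower and 0 higher in the *Eomes* KO on day 2 and in the *T* KO and dKO on day 3, 0 lower and 2 higher in the *T* KO on day 2, and 3 lower and 0 higher in the dKO on day 2. With 13 or 14 genes examined, a count of 1 lies near the shares of all genes called in these comparisons. *Igfbp3*, a binding protein for *Igf2*, was among the lower genes in all of these but the *Eomes* KO and *T* KO on day 2: it was at 32.5 to 47.5 FPKM in the 3 F1G4 KO lines on day 3 against 219 FPKM in WT, and at 24.0 and 47.8 FPKM in the *Smad4* KO against 60.1 and 147 FPKM in *Smad4* WT. *Igf1r*, the receptor through which *Igf2* signals, was at 7.83, 8.25 and 4.53 FPKM in the *Eomes* KO, the *T* KO and the dKO on day 3 against 6.66 FPKM in WT, and was called lower only in the dKO on day 2 (1.59 against 3.31 FPKM).

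A list of 44 other imprinted genes held *Nespas*, already described, which left 43. Of these, 42 were in the tables, and 4 of 24 were called lower and 3 higher on day 3 of the F1G4 WT course (median log2 ratio 0.15), and 23 were examined in the *Smad4* KO on day 1 and 25 on day 2, with 1 lower and 2 higher, and 2 lower and 4 higher. In the *Eomes* KO it was 2 lower and 1 higher of 27 on day 2 and 1 and 2 of 25 on day 3, in the *T* KO 2 and 1 of 26 on day 2 and 0 of 22 on day 3, and in the dKO 3 and 0 of 26 on day 2 and 1 and 1 of 24 on day 3. The count on day 3 of WT lies near the 31.1% of all genes called there. Those of the *Smad4* KO on days 1 and 2 lie above the 4.77% and 5.77% there. Those of the *Eomes* KO and dKO on day 2 lie slightly above the 7.52% and 7.99% there. The counts lie slightly below the shares of all genes in the *Eomes* KO on day 3 (16.4%), the *T* KO on days 2 and 3 (15.6% and 6.04%) and the dKO on day 3 (11%). With 22 to 27 genes examined in the F1G4 KO lines, these gaps amount to few genes and are not read as differences. The median log2 ratios of these listed genes in the KO comparisons lay between −0.09 and 0.31. *Sfmbt2*, a polycomb-group gene imprinted in trophoblast, was at 1.52, 3.21 and 1.68 FPKM in the *Eomes* KO, the *T* KO and the dKO on day 2 against 12.6 FPKM in WT, at 21.9, 25.4 and 9.74 FPKM on day 3 against 18.3 FPKM, none called, and at 8.06 and 4.47 FPKM in the *Smad4* KO against 18.9 and 18.2 FPKM in *Smad4* WT.

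Markers of other cell types moved with the lines. The summed FPKM of 8 nascent mesoderm markers, given above for the F1G4 lines, was 14.4 and 90.3 in *Smad4* WT on days 1 and 2 and 3.20 and 4.11 in the *Smad4* KO, with at most 2 of the 8 listed at 0 in any column. The sum of 5 neural markers was 41.55 in *Smad4* WT and 91.0 in the *Smad4* KO on day 2, and lay between 29.2 and 58.7 in the F1G4 columns. *Nes* alone gave 58.05 of the 91.0. *Sox1* and *Pax6* were also called higher in F1G4 KO lines, both in the *Eomes* KO and dKO on day 2 and in the dKO on day 3. *Sox1* alone was called higher in the *T* KO on day 2 and the *Eomes* KO on day 3. In the *Eomes* KO on day 2 *Sox1* was at 7.17 against 0.202 FPKM in WT and *Pax6* at 4.54 against 0.101 FPKM. The part of these shifts in the imprinted genes' levels was not tested. The sum of 15 fibroblast feeder markers lay between 2.19 and 7.91 FPKM, except 15.95 FPKM in the *Eomes* KO on day 3, the column where 9 imprinted genes were called higher. There Fbln2 was called higher (4.33 against 1.08 FPKM in WT), as was Postn (1.46 against 0.496 FPKM), Pdgfrb was at 5.81 against 3.03 FPKM, and none of the 15 was called lower. The collagen genes *Col1a1*, *Col1a2* and *Col3a1* were at 0.946, 0.863 and 0.155 FPKM there, against 0.471, 0.470 and 0.0739 FPKM on day 3 of WT, and stayed below 1 FPKM in all columns. *Fap* was listed at 0 in all 14 columns. The part of these markers in the calls of that column was not tested.

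The sum of 9 extraembryonic endoderm markers lay between 0.703 and 8.18 FPKM, and 5.81 FPKM in the *Eomes* KO on day 2, with between 0 and 3 of the 9 at 0. The sum of 8 trophoblast markers went from 29.9 FPKM in WT ES aggregates to 654 FPKM on day 3, of which the keratin gene *Krt8*, also expressed in other epithelia, gave 619 FPKM. Hand1 went from 0.121 to 20.5 FPKM and Cdx2 from 0.128 to 7.30 FPKM, both called higher on day 3 and both also expressed in mesoderm. Tfap2c went the other way, from 16.99 FPKM in WT ES aggregates to 6.736 FPKM on day 3 of WT, and was called lower. On day 3 the sum was 784 FPKM in the *Eomes* KO, 593 FPKM in the *T* KO and 911 FPKM in the dKO. The placental lactogen gene *Prl3d1* was listed at 0 in all 14 columns and *Elf5* in 13. The sum of 7 pluripotency markers was 2624 FPKM in WT ES aggregates and 1167 FPKM on day 3 of WT, and 497 FPKM in the *Eomes* KO, 865 FPKM in the *T* KO and 1122 FPKM in the dKO on day 3. It was 989 and 808 FPKM in the *Smad4* KO on days 1 and 2 against 1342 and 1117 FPKM in *Smad4* WT. *Pou5f1* and *Tdgf1* gave 1002 and 625 FPKM of the 2624. In the *Eomes* KO on day 3 only *Tdgf1* was called, lower at 97.75 against 533 FPKM in WT, and the median log2 ratio was 0.002. None was called in the *T* KO and dKO on day 3. The *Smad4* KO had 2 of 7 called lower on day 1. On day 2 it had 5 lower and 1 higher, *Sox2* (119.6 against 35.2 FPKM).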

How the data were processed

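RNA-seq was run on 18 samples. Per the methods and the submitters' processing notes, the authors trimmed reads with cutadapt 2.9, aligned them with HISAT2 2.1.0 and SAMtools 1.9 and made FPKM values per gene with Cuffdiff 2.2.1, deposited as 1 value per gene and condition in 9 tables, replicates pooled, with no column left unused. A gene was examined with FPKM above 1 in at least one column compared and called with a log2 ratio above 1 or below −1, with no pseudocount. Since the tables hold no replicates, no statistical test was run. Each listed gene was accounted for, and values in every condition are given for genes called in at least 3 of the 8 KO comparisons or reaching 10 FPKM. The members and lists (imprint maintenance, insulin-like growth factor pathway, other imprinted genes, cell type markers) were chosen with earlier results of these data known. Coordinates and promoters came from RefSeq on GRCm38.p6, matched by symbol. Fragments behind a value were taken from the step between low FPKM values and the annotated transcript lengths. Alternatives were a pseudocount of 1, no minimum, a minimum of 5 FPKM, TPM, a median log2 ratio of 0 and the time-course WT column. The calling step itself was tested on simulated data with known changes. Scripts ran in Python 3.11.15 (pandas 2.3.3, numpy 2.4.6, matplotlib 3.10.9, scipy 1.17.1).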

Additional observations from a re-analysis of the deposited data

Results flagged for a closer look

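*Snrpn* and *Ndn* moved in opposite directions in lines without different factors on day 2. The log2 ratio of *Snrpn* was 1.33 in the *Smad4* KO and −1.40 in the *T* KO, and that of *Ndn* was 1.62 in the *Smad4* KO and −1.77 in the *T* KO, each from 1 KO sample. These were picked out because the same contrast, KO against WT, gave calls of opposite sign, and the difference between the lines was not tested. The KO lines have different parents, and the WT levels on day 2 were 140.7 FPKM of *Snrpn* and 6.72 FPKM of *Ndn* in *Smad4* WT and 104 and 8.41 FPKM in F1G4 WT.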

How the results depend on the processing

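No direction of a called gene reversed in any of the alternatives run. Of 101 calls, 26 were lost with a pseudocount of 1, 27 with a minimum of 5 FPKM, 7 with TPM and 0 without a minimum or with the median set to 0, and 0 of 45 with the time-course WT column. Without a minimum the number of imprinted genes called was 9 in place of 4 in WT on day 1, 15 in place of 8 in the *Smad4* KO on day 2, 8 in place of 5 and 12 in place of 6 in the dKO on days 2 and 3, and 5 in place of 3 between the WT lines on day 2. A minimum of 5 FPKM gave 2 in WT on day 1, 5 in place of 8 in the *Smad4* KO on day 1, 5 in place of 8 between the WT lines on day 1 and 0 on day 2. A pseudocount of 1 gave 8 in place of 13 in WT on day 3, 5 in the *Smad4* KO on day 1 and 1 between the WT lines on day 2. TPM gave 10 in WT on day 1 and 10 in the dKO on day 2. A stricter minimum and a pseudocount take out genes of low FPKM by construction, and the cause of the other changes was not tested. The share of lower genes among all genes called moved from 39.4% to 50.8% with TPM between the WT lines on day 1. No paired analysis was possible because the tables hold 1 value per condition and no replicate numbers. No replicate could be left out for the same reason. Some values under 1 FPKM rest on few fragments, such as 5 of *Peg12* in the *T* KO on day 3, so that their ratios are imprecise. Long transcripts are an exception, as *Kcnq1ot1* (83437 bases) had 999 fragments at 0.501 FPKM in the *Smad4* KO on day 1.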
